A study of Mus musculus with 9 samples.

Results

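The sterol and fatty acid synthesis genes are 32 genes of the SREBP pathway, taken by name from the 20189 genes of a count table of mouse mRNA. They comprise 5 SREBP regulators, 7 enzymes from acetyl-CoA to farnesyl diphosphate, 11 enzymes from squalene to cholesterol, the sterol carrier Stard4, 3 enzymes of fatty acid synthesis and 5 enzymes of desaturation and elongation. All 32 were found in the table and all 32 had counts. The mRNA came from wild-type E14 cells, a line of mouse embryonic stem (ES) cells. There were 3 libraries from cells starved of threonine (Thr), 3 from cells starved of cysteine (Cys) and 3 from unstarved cells, with starvation lasting 3 h. The labels describe a starvation medium with dialysed serum, glucose, β-mercaptoethanol and leukemia inhibitory factor, written for arginine and leucine. They give it with all amino acids for unstarved cells, and do not say whether it was the base for Thr or Cys starvation. How Thr or Cys was left out of the medium of these libraries is not stated there. Each group is 1 cell line, and the labels do not say whether the 3 libraries of a group came from separate cultures, so p-values measure the spread between these libraries only.

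Sterol regulatory element-binding proteins (SREBPs) are membrane-bound transcription factors that are carried from the endoplasmic reticulum to the Golgi by the escort protein Scap and cleaved there when sterols are scarce. The Insig proteins hold Scap back when sterols are plentiful. The released factors bind sterol regulatory elements, often beside the CCAAT box of NF-Y, and raise transcription of the enzymes of cholesterol and fatty acid synthesis, and of Insig1 itself.

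RefSeq promoter windows of 250 bases before and 50 bases after the transcription start were matched by symbol to 25 of the 32 genes, and 3 motifs were sought on both strands: TCACNCCAC (a core of the sterol regulatory element), CCAAT (the NF-Y box) and CACGTG (the palindromic E-box). No spelling holds another, though matches may share bases at their ends, as 2 CCAAT matches on opposite strands do in the Fasn window. CCAAT was found in 20 of the 25 genes (80.0%), against 41.1% of the 27025 genes with a window, and 11 of the 25 held it at least 2 times in 1 window, against 13.3% of all. CACGTG was found in 5 genes (Scap, Insig1, Hsd17b7, Sc5d and Dhcr7); 8.09% of all genes with a window held it. TCACNCCAC was found in Hmgcs1 alone of the 25, against 1.44% of all. A gene was taken to hold a motif if any of its windows did, and the 25 genes had 33 windows. The share of all genes includes genes that are not in the count table. No share was computed over genes at a level like that of the 32. Other spellings of the sterol regulatory element were not sought. Of the 21 genes with a window that were lower in Thr starvation, 16 held CCAAT, and so did both that were higher (Insig2 and Lss) and both that were not called (Cyp51 and Sc5d). A match describes the letters and is no evidence of binding.

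Upstream bases of 6 genes are shown, chosen after their values were seen. Insig1 is the feedback regulator, Hmgcs1 the 1 window with a TCACNCCAC match, and Mvk the window with 5 CCAAT matches. Nsdhl and Fasn are a sterol and a fatty acid enzyme that fell in Thr starvation, and Lss is a sterol enzyme that rose. The sequences run 5′ to 3′ on the strand of the gene in build GRCm38.p6, and capitals mark the matches (ATTGG is CCAAT read on the opposite strand). Bases at or after the start of the gene in GENCODE are left out. Their positions are chr5:28071162-28071362 (plus strand) for Insig1, chr13:119690101-119690350 (plus) for Hmgcs1, chr5:114444019-114444268 (plus) for Mvk, chrX:72918271-72918520 (plus) for Nsdhl, chr11:120824548-120824797 (minus) for Fasn and chr10:76531355-76531587 (plus) for Lss. 
Insig1: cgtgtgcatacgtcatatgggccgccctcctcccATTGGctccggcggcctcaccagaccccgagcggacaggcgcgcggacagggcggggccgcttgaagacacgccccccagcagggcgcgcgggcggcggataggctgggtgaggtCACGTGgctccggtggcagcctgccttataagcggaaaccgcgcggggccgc
Hmgcs1: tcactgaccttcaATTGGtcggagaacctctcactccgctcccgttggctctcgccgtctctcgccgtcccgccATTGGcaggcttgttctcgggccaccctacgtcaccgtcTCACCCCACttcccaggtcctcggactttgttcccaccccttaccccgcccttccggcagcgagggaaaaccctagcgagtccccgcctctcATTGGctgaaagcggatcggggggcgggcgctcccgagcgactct
Mvk: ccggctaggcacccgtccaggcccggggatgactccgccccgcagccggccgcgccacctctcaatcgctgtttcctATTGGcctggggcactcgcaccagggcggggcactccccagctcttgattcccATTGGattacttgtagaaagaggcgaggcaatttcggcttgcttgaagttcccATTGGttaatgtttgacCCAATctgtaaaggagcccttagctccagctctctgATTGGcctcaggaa
Nsdhl: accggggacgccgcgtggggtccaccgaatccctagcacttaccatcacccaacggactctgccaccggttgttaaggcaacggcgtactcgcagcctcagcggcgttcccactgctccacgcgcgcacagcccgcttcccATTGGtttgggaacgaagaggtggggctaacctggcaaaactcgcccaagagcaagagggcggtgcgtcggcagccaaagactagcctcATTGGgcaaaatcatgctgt
Fasn: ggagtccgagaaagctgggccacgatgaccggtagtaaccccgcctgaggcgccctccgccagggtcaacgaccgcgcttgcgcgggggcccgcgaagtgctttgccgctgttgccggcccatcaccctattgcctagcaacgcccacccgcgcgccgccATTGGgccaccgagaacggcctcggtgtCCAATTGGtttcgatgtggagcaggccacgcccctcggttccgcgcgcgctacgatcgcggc
Lss: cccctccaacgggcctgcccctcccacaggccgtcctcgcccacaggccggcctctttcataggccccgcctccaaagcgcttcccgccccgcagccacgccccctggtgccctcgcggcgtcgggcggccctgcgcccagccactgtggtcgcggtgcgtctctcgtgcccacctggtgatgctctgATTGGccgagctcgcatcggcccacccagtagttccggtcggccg

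Total counts ranged from 48763102 to 74962733 per library. All 8 ES cell markers were high, and their summed level was 3907 to 3932 CPM (counts scaled by library size) in unstarved, 4137 to 4217 CPM in Thr-starved and 3728 to 3754 CPM in Cys-starved libraries. The summed level of the 2 neural markers, Sox1 and Pax6, was 15.5 to 16.5 CPM in unstarved, 22.2 to 25.8 CPM in Thr-starved and 20.97 to 21.7 CPM in Cys-starved libraries. The 6 mesoderm and endoderm markers summed to between 6.44 and 8.50 CPM and the 3 fibroblast markers to between 8.76 and 12.6 CPM over all 9 libraries. Cdx2, the trophoblast marker, lay between 1.01 and 1.45 CPM in unstarved, 0.382 and 0.671 CPM in Thr-starved and 1.10 and 1.40 CPM in Cys-starved libraries, and no marker was at 0 in any library. Markers within the ES cell list and within the mesoderm and endoderm list went both ways in Thr starvation. Of the 8 ES cell markers 4 were called higher (Klf4 by 0.85 and Sox2 by 0.44 among them) and 4 lower (Nanog at -0.42 and Pou5f1 at -0.17 among them), and of the 6 mesoderm and endoderm markers 3 were called higher (Foxa2 by 1.73, Sox17 by 1.20 and Gata4 by 0.36) and T lower (-1.56). In Cys starvation 3 ES cell markers were called higher (Esrrb by 0.26 among them) and 5 lower (Tdgf1 at -0.50 among them). Of the mesoderm and endoderm markers 2 were called higher there (Foxa2 by 1.13 and Gata4 by 0.51) and 4 were not called. Of the neural markers, Sox1 was called higher with Thr (0.88) and with Cys (0.51), and Pax6 with Cys alone (0.31). Cdx2 (-1.32) and the fibroblast marker Col1a1 (-0.39) were called lower with Thr and not called with Cys. The fibroblast markers Col1a2 and Col3a1 were called in neither. The part of these marker differences in the results was not tested. In bulk RNA, fewer cells of a type and less RNA per cell cannot be told apart.

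Most of these 32 genes, which were chosen with earlier results of these data known, were lower in Thr-starved cells. Of the 32 genes, 26 fell, 3 rose (Insig2, Lss and Fads1) and 3 were not called (Cyp51, Sc5d and Stard4) in edgeR's quasi-likelihood test (0.05 or less after Benjamini-Hochberg adjustment), where 31.9% of the 20143 tested genes were called lower and 31.1% higher. Among the 11169 genes at or above the mean level of the lowest of the 32, 38.9% were called lower and 41.8% higher. The median log2 fold change of the 32 genes was -0.49, against -0.02 over all tested genes. The 3 Thr-starved libraries lay below the 3 unstarved ones for 27 genes (33.9% of all tested genes did so) and above them for 3 (32.6%). A fall of at least 1 on the log2 scale was reached by 6 genes (7.46% of all tested genes), namely Dhcr7, Scd2, Hmgcs1, Nsdhl, Insig1 and Scd1.

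In Cys starvation 16 of the 32 genes fell, 4 rose (Srebf1, Insig2, Cyp51 and Fads1) and 12 were not called, where 18.8% of all tested genes were called lower and 17.5% higher. At or above the mean level of the lowest of the 32, 30.8% were called lower and 24.6% higher. The median log2 fold change came to -0.09, against 0.01 over all tested genes, and none of the 32 reached 0.5 in size. Cys-starved libraries lay wholly below the unstarved ones for 16 genes (23.5% of all tested genes) and wholly above for 8 (23.0%). Both starvations share the same 3 unstarved libraries, so their values are set side by side only. Tested directly, 27 genes were lower in Thr-starved than in Cys-starved cells (31.6% of all tested genes), 3 were higher (Insig2, Lss and Srebf2; 30.4%) and 2 were not called (Ebp and Fads1), with a median log2 difference of -0.39 against -0.02 over all tested genes. At or above the mean level of the lowest of the 32, 36.7% were lower and 44.2% higher. Thr-starved libraries lay wholly below Cys-starved ones for 27 genes (33.6% of all tested genes) and wholly above for 3 (32.1%).

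**Figure D1:**
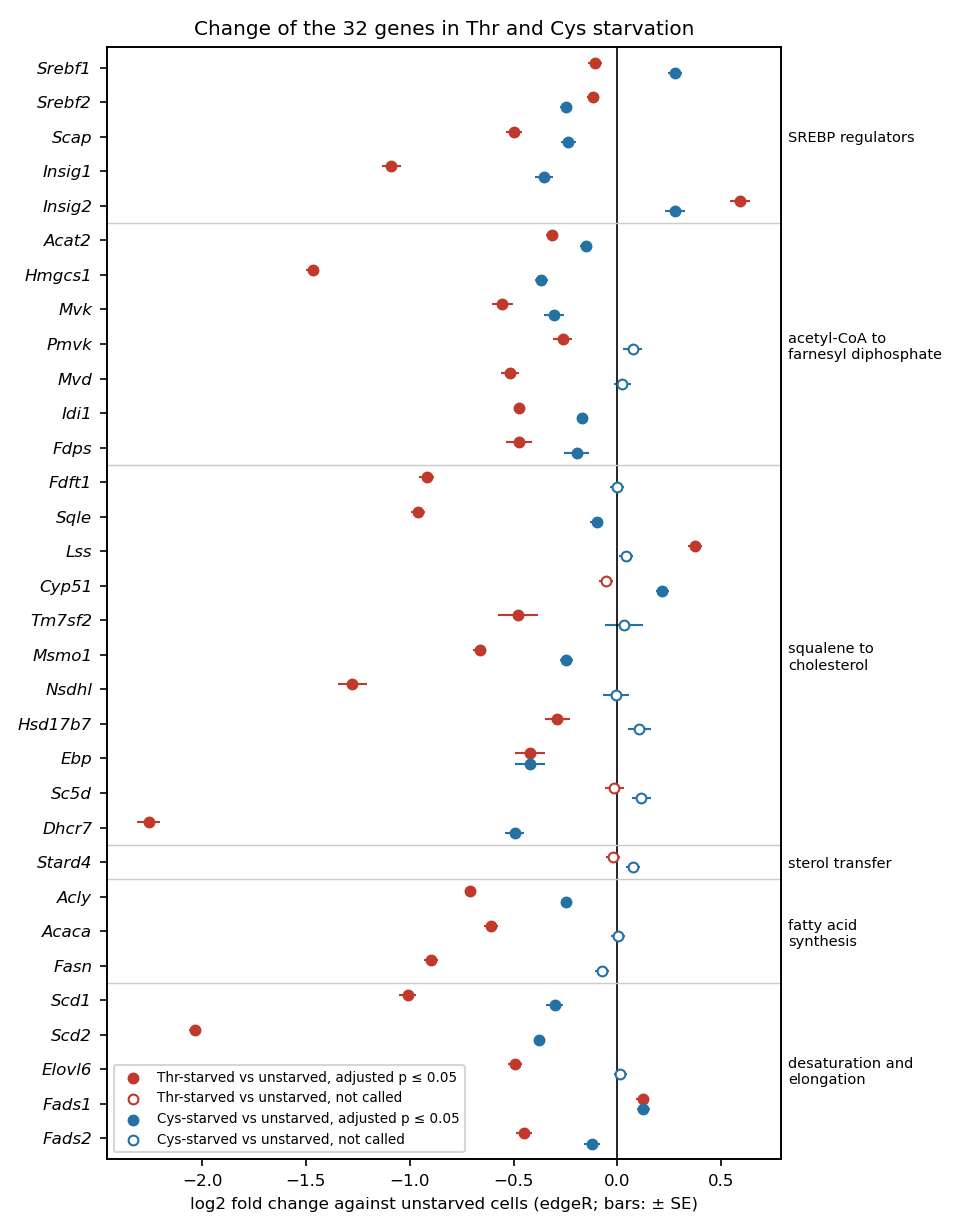
Log2 fold change against unstarved cells (horizontal axis, with bars of ± SE) of the 32 genes, ordered by pathway step, in Thr starvation (red) and Cys starvation (blue). Filled points passed an adjusted p of 0.05. Dhcr7 at -2.26 and Scd2 at -2.03 lie farthest to the left in Thr starvation, and Insig2 at 0.59 farthest to the right.

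The summed level of the 32 genes was 2949 to 3062 CPM in unstarved, 1875 to 1884 CPM in Thr-starved and 2687 to 2737 CPM in Cys-starved libraries, and the 3 ranges did not overlap. Acly and Fasn carried much of this sum. Without those 2 genes it was 1961 to 1998 CPM in unstarved, 1290 to 1299 CPM in Thr-starved and 1777 to 1823 CPM in Cys-starved libraries, again without overlap.

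Levels between genes were compared per kilobase (kb) of merged exon. This length joins the exons of all GENCODE transcripts of a gene, so levels and ratios between genes depend on the annotation. In unstarved cells Acly stood highest at 89.8 ± 2.36 CPM per kb (SD, n = 3), followed by Scd2 at 53.8 ± 0.942, Acat2 at 50.8 ± 0.298, Fasn at 50.2 ± 2.42, Hmgcs1 at 37.0 ± 1.14 and Idi1 at 33.1 ± 0.905 CPM per kb. The levels of Acat2 and Fasn differed by less than the spread of Fasn. Tm7sf2 stood lowest, at 1.39 ± 0.144 CPM per kb, below Hsd17b7 at 2.61 ± 0.0610 and Fdps at 2.98 ± 0.0258 CPM per kb. In Thr-starved cells Acly remained highest at 54.9 ± 1.06 CPM per kb, while Scd2 stood at 13.1 ± 0.243 CPM per kb, below Acat2 at 40.8 ± 0.989 and Idi1 at 23.9 ± 0.450 CPM per kb.

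**Figure D2:**
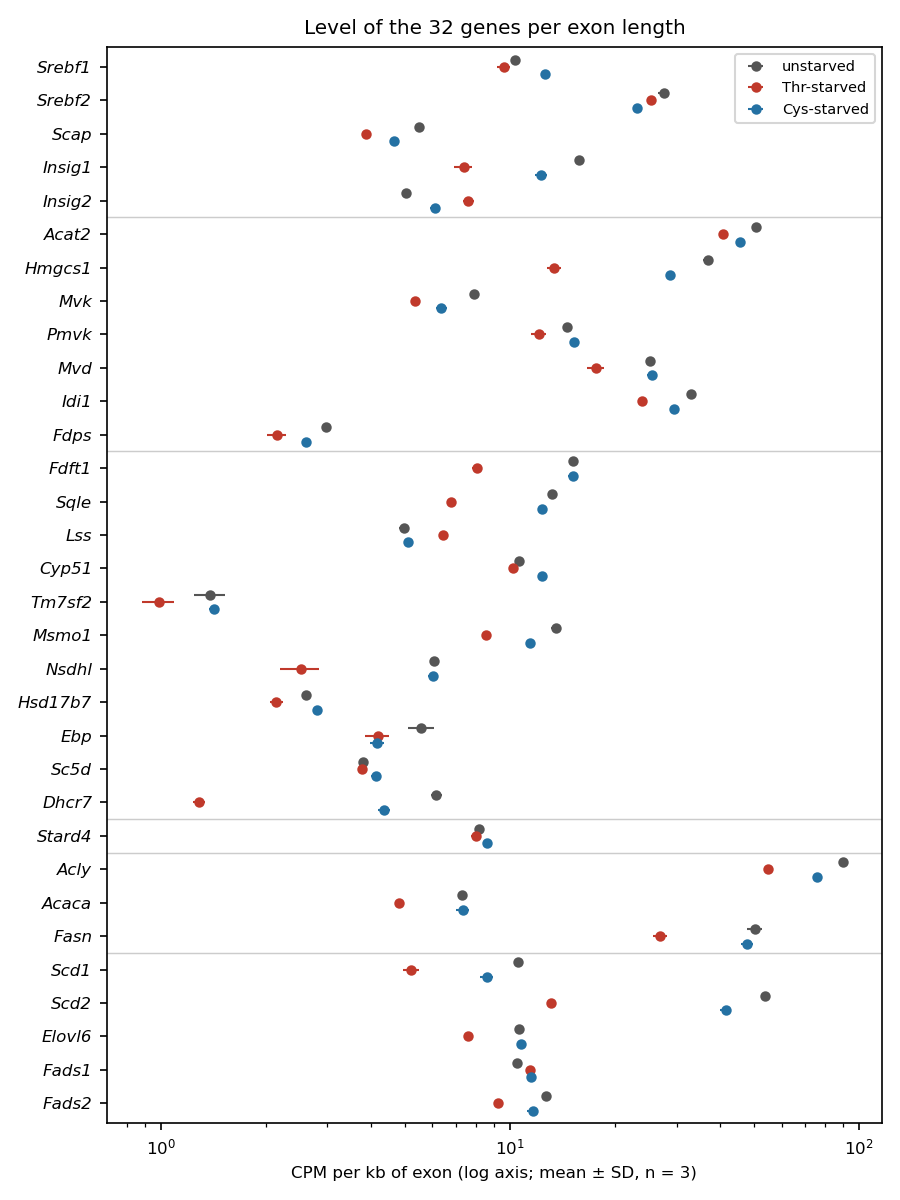
Mean level of each gene in CPM per kb of exon (horizontal log axis, bars ± SD, n = 3) in unstarved (grey), Thr-starved (red) and Cys-starved (blue) cells, in pathway order. The unstarved levels span from 1.39 for Tm7sf2 to 89.8 for Acly.

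Among the regulators, Insig1 and Insig2 moved apart. Both encode endoplasmic reticulum proteins that retain the SREBP-Scap complex, and Insig1 is itself an SREBP target. Insig1 (chromosome 5, 28071363 to 28078662) measured 49.6, 48.4 and 47.9 CPM in unstarved, 21.3, 23.0 and 24.0 CPM in Thr-starved and 37.7, 39.7 and 36.7 CPM in Cys-starved cells. The 3 groups did not overlap, with Thr-starved cells lowest. It fell by 1.09 ± 0.04 (SE) on the log2 scale in Thr starvation (adjusted p = 1.4e-15) and by 0.35 ± 0.04 in Cys starvation (adjusted p = 6.7e-07), and the starvations differed by -0.74 ± 0.05. A gene model that shares a near-identical stretch, Gm37784, stood at a mean of 0.487 CPM against 36.5 CPM for Insig1. Insig2 (chromosome 1, 121304353 to 121332589) measured 17.3, 17.6 and 17.7 CPM in unstarved, 25.9, 27.5 and 25.8 CPM in Thr-starved and 20.4, 21.6 and 21.7 CPM in Cys-starved cells. Here every starved library lay above every unstarved one, and Thr-starved libraries lay above Cys-starved ones. The log2 fold change came to 0.59 ± 0.05 in Thr starvation (adjusted p = 1.9e-10) and 0.28 ± 0.05 in Cys starvation (adjusted p = 6.7e-05), with a direct difference of 0.31 ± 0.05. Per kb, Insig1 exceeded Insig2 by 3.04 to 3.23 times in unstarved libraries and by 1.90 to 2.08 times in Cys-starved libraries, whereas the ratio was 0.926 to 1.05 in Thr-starved libraries.

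Srebf1, which encodes the SREBP best known for fatty acid synthesis genes, was the 1 gene of the 32 called in opposite directions by the 2 starvations, as were 7.45% of all tested genes. It measured 58.3, 57.5 and 59.4 CPM in unstarved, 51.8, 54.2 and 56.1 CPM in Thr-starved and 71.7, 70.1 and 70.6 CPM in Cys-starved cells. Cys-starved libraries were highest and Thr-starved ones lowest, without overlap, although the Thr-starved and unstarved ranges nearly met. Its log2 fold change came to -0.11 ± 0.03 in Thr starvation (adjusted p = 0.0069) and 0.28 ± 0.03 in Cys starvation (adjusted p = 5.6e-07), and the direct difference of -0.39 ± 0.03 passed the test (adjusted p = 6.7e-10). Without Thr-starved replicate 1 the Thr value was -0.08 and was no longer called. Srebf1 shares 109 bases of exon with Rai1 on the opposite strand, which changed by -1.31 in Thr starvation. Srebf2, the SREBP best known for sterol genes, fell in both starvations, by 0.12 ± 0.03 with Thr and by 0.25 ± 0.03 with Cys, and was the 1 regulator besides Insig2 that was higher in Thr-starved than in Cys-starved cells (0.13 ± 0.03). Per kb, Srebf1 stood at 0.357 to 0.387 of Srebf2 in unstarved libraries, at 0.362 to 0.399 in Thr-starved libraries and at 0.531 to 0.552 in Cys-starved libraries. Scap fell by 0.50 ± 0.04 in Thr starvation, just under the size at which each library is listed here, and by 0.24 ± 0.04 in Cys starvation.

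**Figure D3:**
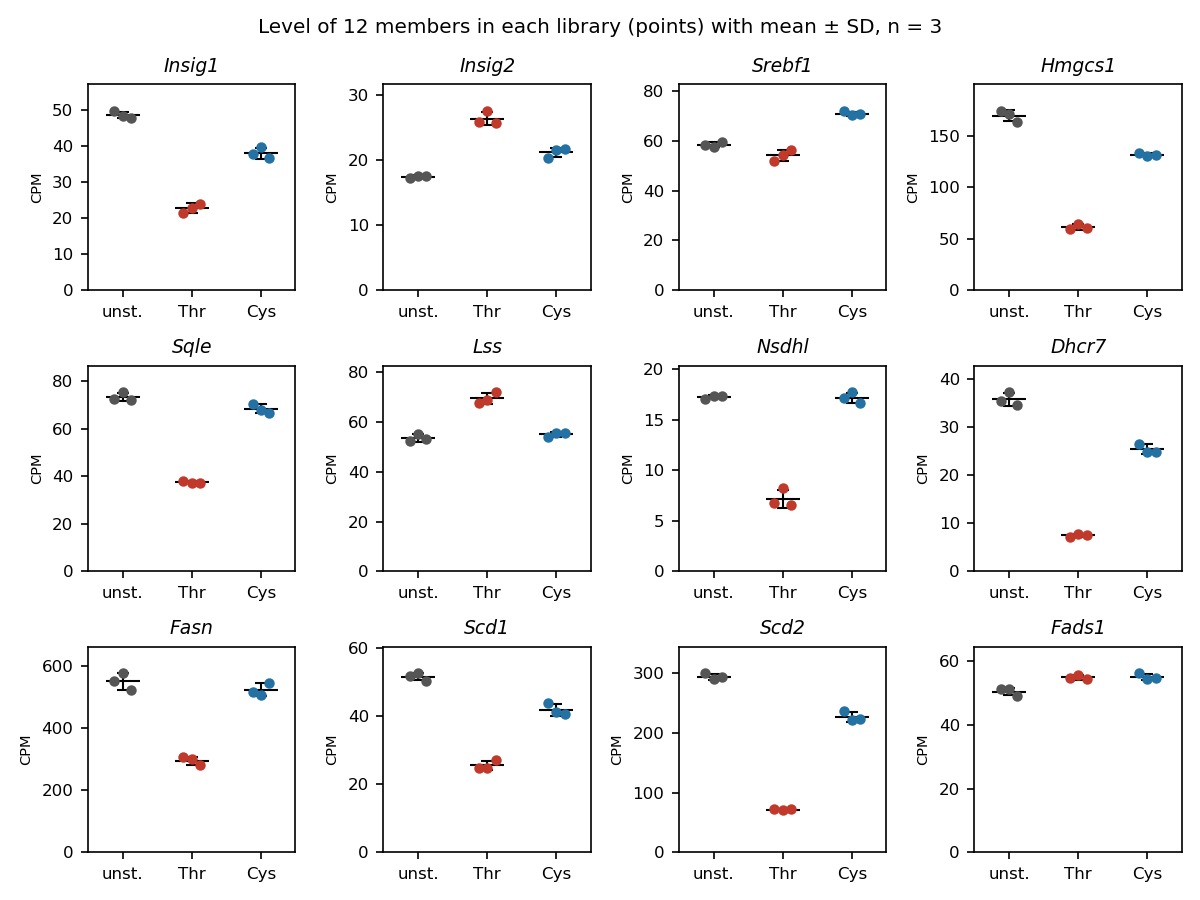
Level in CPM (vertical axes from 0) of 12 of the genes in each of the 9 libraries (points), with mean and SD per group (n = 3; unst., unstarved). Thr-starved libraries of Insig1, Hmgcs1, Sqle, Nsdhl, Dhcr7, Fasn, Scd1 and Scd2 sit below both other groups, and those of Insig2 and Lss above both.

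All 7 enzymes from acetyl-CoA to farnesyl diphosphate fell in Thr starvation, with log2 fold changes from -1.47 (Hmgcs1) to -0.26 (Pmvk). In Cys starvation 5 of the 7 fell, from -0.37 to -0.15, and Pmvk and Mvd were not called. All 7 were lower in Thr-starved than in Cys-starved cells.

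Hmgcs1, the cytosolic HMG-CoA synthase that feeds the mevalonate pathway, moved most in this arm. It lies on chromosome 13 from 119690379 to 119708260. Its level was 174, 172 and 164 CPM in unstarved, 59.3, 64.6 and 60.6 CPM in Thr-starved and 134, 130 and 131 CPM in Cys-starved cells. The groups were fully separated, with Cys-starved cells between the other two. Hmgcs1 was 2.76-fold lower in Thr starvation (log2 fold change -1.47 ± 0.03, adjusted p = 2.0e-20) and changed by -0.37 ± 0.03 in Cys starvation (adjusted p = 2.7e-09), and the direct difference was -1.10 ± 0.03. Mvk, mevalonate kinase, measured 21.3, 20.6 and 21.2 CPM in unstarved, 14.4, 14.2 and 14.4 CPM in Thr-starved and 16.3, 17.4 and 17.4 CPM in Cys-starved cells, again in 3 separate ranges. Its log2 fold change came to -0.55 ± 0.05 with Thr (adjusted p = 1.4e-09) and -0.31 ± 0.05 with Cys (adjusted p = 2.5e-05). Mvd, mevalonate diphosphate decarboxylase, measured 45.9, 48.1 and 46.2 CPM in unstarved, 34.9, 31.98 and 31.3 CPM in Thr-starved and 47.8, 48.995 and 45.8 CPM in Cys-starved cells. Thr-starved libraries of Mvd were the low ones, and Cys-starved and unstarved libraries overlapped. It fell by 0.52 ± 0.04 in Thr starvation (adjusted p = 3.0e-10) and had a value of 0.02 ± 0.04 in Cys starvation (adjusted p = 0.71).

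The other 4 enzymes of this arm fell by less than 0.5 in Thr starvation. Pmvk, phosphomevalonate kinase, changed by -0.26 ± 0.05 with Thr and had a value of 0.07 ± 0.05 with Cys (adjusted p = 0.23). Acat2, which joins acetyl-CoA units, changed by -0.32 ± 0.03 with Thr and -0.15 ± 0.03 with Cys. Acat2 shares near-identical sequence with its paralog Acat3 and with Tcp1, whose Thr values were -0.30 and 0.05. Idi1, isopentenyl diphosphate isomerase, changed by -0.47 ± 0.03 with Thr and -0.17 ± 0.03 with Cys. It shares a near-identical stretch with 2 gene models, Gm13502 and Gm35570, whose Thr values were -0.49 and -0.40. Fdps, farnesyl diphosphate synthase, changed by -0.47 ± 0.06 with Thr and -0.20 ± 0.06 with Cys. The 4 gene models that share a near-identical stretch with Fdps hold 17250 counts over the 9 libraries. Fdps itself was assigned 5763, so its level is uncertain. The Thr values of these gene models lay between -0.57 (Gm7979) and -0.24 (Gm5873).

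Between squalene and cholesterol, 8 of 11 enzymes fell in Thr starvation, Lss rose, and Cyp51 and Sc5d were not called. In Cys starvation 4 fell (Sqle, Msmo1, Ebp and Dhcr7), Cyp51 rose and 6 were not called. The median Thr value of the 11 was -0.48, and the values spanned -2.26 to 0.38.

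Dhcr7, which reduces 7-dehydrocholesterol to cholesterol in the last step of its branch, had the largest fall of the 32 genes in Thr starvation. It lies on chromosome 7 from 143823145 to 143848410. It measured 35.5, 37.2 and 34.7 CPM in unstarved, 7.16, 7.74 and 7.54 CPM in Thr-starved and 26.6, 24.8 and 24.9 CPM in Cys-starved cells. All 3 groups were separate. Dhcr7 was 4.78-fold lower in Thr starvation (log2 fold change -2.26 ± 0.05, adjusted p = 9.2e-20), changed by -0.49 ± 0.05 in Cys starvation (adjusted p = 1.3e-08) and differed by -1.76 ± 0.05 between the starvations. Nsdhl, a sterol dehydrogenase of C4 demethylation on chromosome X from 72918557 to 72958514, measured 17.1, 17.4 and 17.3 CPM in unstarved, 6.75, 8.24 and 6.57 CPM in Thr-starved and 17.1, 17.7 and 16.7 CPM in Cys-starved cells. Thr-starved libraries alone were low, and the other two groups overlapped. Its log2 fold change came to -1.28 ± 0.07 with Thr (adjusted p = 2.6e-13) and -0.01 ± 0.06 with Cys (adjusted p = 0.94), and the direct difference was -1.27 ± 0.07 (adjusted p = 3.2e-13).

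Sqle, squalene epoxidase, and Lss, the cyclase that acts next, moved in opposite directions in Thr starvation. Sqle measured 72.4, 75.4 and 72.2 CPM in unstarved, 38.2, 37.4 and 37.4 CPM in Thr-starved and 70.5, 67.9 and 66.9 CPM in Cys-starved cells. Its Thr-starved libraries were far below the rest, and its Cys-starved libraries just below the unstarved ones. Its log2 fold change came to -0.96 ± 0.03 with Thr (adjusted p = 7.2e-17) and -0.10 ± 0.03 with Cys (adjusted p = 0.016), and the Cys call was lost without unstarved replicate 2 (-0.08), Cys-starved replicate 2 (-0.09) or Cys-starved replicate 3 (-0.08). Lss measured 52.3, 55.3 and 53.2 CPM in unstarved, 67.8, 68.9 and 72.0 CPM in Thr-starved and 54.0, 55.8 and 55.7 CPM in Cys-starved cells. Only its Thr-starved libraries stood apart, above the others. It rose by 0.38 ± 0.03 with Thr (adjusted p = 1.4e-09) and had a value of 0.04 ± 0.03 with Cys (adjusted p = 0.39). Per kb, Sqle exceeded Lss by 2.64 to 2.69 times in unstarved and 2.33 to 2.54 times in Cys-starved libraries, and by 1.01 to 1.10 times in Thr-starved libraries. The merged exons of Lss span 10787 bases and those of Sqle 5546. In CPM, Lss stood above Sqle in Thr-starved libraries.

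Fdft1, squalene synthase, measured 64.9, 62.6 and 65.0 CPM in unstarved, 35.0, 33.7 and 33.2 CPM in Thr-starved and 66.1, 63.4 and 62.6 CPM in Cys-starved cells. Thr-starved libraries were low, and Cys-starved and unstarved ones overlapped. It fell by 0.92 ± 0.04 with Thr (adjusted p = 4.7e-16), with a value of -0.0026 ± 0.03 with Cys (adjusted p = 0.97). Fdft1 shares 774 bases of exon with Ctsb on the opposite strand, whose values were -0.44 with Thr and -0.76 with Cys, and whether reads were counted by strand is not given in the sources used here. Msmo1, the methylsterol monooxygenase of C4 demethylation, measured 85.8, 81.5 and 81.9 CPM in unstarved, 52.8, 51.0 and 53.5 CPM in Thr-starved and 71.9, 69.1 and 69.2 CPM in Cys-starved cells. Its groups were separate, with log2 fold changes of -0.66 ± 0.03 with Thr (adjusted p = 3.3e-14) and -0.25 ± 0.03 with Cys (adjusted p = 1.9e-06). Msmo1 carries a stretch that 49 other genes with counts match nearly identically. Tm7sf2, a sterol reductase and the lowest of the 32 genes, measured 6.73, 5.46 and 6.12 CPM in unstarved, 4.22, 3.96 and 4.84 CPM in Thr-starved and 6.11, 6.46 and 6.14 CPM in Cys-starved cells. Its Thr-starved libraries lay below the others, and its log2 fold change came to -0.48 ± 0.10 with Thr (adjusted p = 1.8e-04) and 0.03 ± 0.09 with Cys (adjusted p = 0.84). Tm7sf2 shares 532 bases of exon on its own strand with Vps51, whose Thr value was -0.42.

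The other sterol enzymes stayed under 0.5 in size on the log2 scale in every comparison. Hsd17b7, a sterol ketoreductase, changed by -0.29 ± 0.06 with Thr and had a value of 0.11 ± 0.06 with Cys (adjusted p = 0.16). Ebp, the sterol isomerase, changed by -0.42 ± 0.07 in each starvation, and the direct difference was 0.00078 on the log2 scale with an SE of 0.08. Cyp51, lanosterol demethylase, had a value of -0.05 ± 0.03 with Thr (adjusted p = 0.16), although its 3 Thr-starved libraries lay below the unstarved ones, and it rose by 0.22 ± 0.03 with Cys (adjusted p = 1.3e-05). It shares 166 bases of exon with Akap9 on the opposite strand, whose values were 0.49 with Thr and 0.21 with Cys. Sc5d, the sterol desaturase that makes 7-dehydrocholesterol, had values of -0.01 ± 0.05 with Thr (adjusted p = 0.81) and 0.11 ± 0.05 with Cys (adjusted p = 0.059). Stard4, a carrier of cholesterol between membranes, had values of -0.02 ± 0.04 with Thr (adjusted p = 0.63) and 0.08 ± 0.03 with Cys (adjusted p = 0.10). Both Sc5d (-0.13 ± 0.05) and Stard4 (-0.10 ± 0.04) were called lower in Thr-starved than in Cys-starved cells, calls that DESeq2 did not make. The direct call of Sc5d was also lost without Cys-starved replicate 1 (-0.12), Cys-starved replicate 2 (-0.11) or Thr-starved replicate 1 (-0.11), and that of Stard4 without Cys-starved replicate 2 (-0.09), Thr-starved replicate 1 (-0.07) or Thr-starved replicate 2 (-0.08). Without Cys-starved replicate 3, Sc5d was called higher in Cys starvation (0.14).

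The 3 enzymes of fatty acid synthesis all fell in Thr starvation, and Acly alone fell in Cys starvation. Acly, the ATP citrate lyase that supplies cytosolic acetyl-CoA, measured 468, 488 and 466 CPM in unstarved, 285, 289 and 296 CPM in Thr-starved and 400, 400 and 398 CPM in Cys-starved cells. The groups were separate, and the log2 fold change came to -0.71 ± 0.02 with Thr (adjusted p = 1.8e-17) and -0.25 ± 0.02 with Cys (adjusted p = 1.1e-08). Acaca, acetyl-CoA carboxylase, measured 125, 129 and 121 CPM in unstarved, 84.0, 81.3 and 80.6 CPM in Thr-starved and 129, 119 and 128 CPM in Cys-starved cells. Thr-starved libraries of Acaca lay below the rest, and Cys-starved and unstarved libraries overlapped. It fell by 0.61 ± 0.03 with Thr (adjusted p = 2.0e-13) and had a value of 0.0024 ± 0.03 with Cys (adjusted p = 0.97). A gene model that shares a near-identical stretch, Gm5182, stood at 55.8 CPM against 111 CPM for Acaca over all libraries. Its Thr value was -0.62. Fasn, fatty acid synthase, measured 551, 575 and 522 CPM in unstarved, 305, 299 and 280 CPM in Thr-starved and 515, 506 and 545 CPM in Cys-starved cells. Its Thr-starved libraries stood apart, and the other two groups overlapped. The log2 fold change of Fasn was -0.90 ± 0.03 with Thr (adjusted p = 2.6e-16) and -0.07 ± 0.03 with Cys (adjusted p = 0.091). Its Cys value was called lower without unstarved replicate 3 (-0.11), Cys-starved replicate 3 (-0.11) or Thr-starved replicate 3 (-0.07).

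Among the 5 desaturation and elongation genes of the 32, Scd2 fell most in Thr starvation. Scd1 and Scd2 encode stearoyl-CoA desaturases, which put the first double bond into saturated fatty acids. Scd2 (chromosome 19, 44293674 to 44306864) measured 300, 290 and 293 CPM in unstarved, 72.0, 70.3 and 73.0 CPM in Thr-starved and 236, 221 and 223 CPM in Cys-starved cells. All 3 groups were separate. It was 4.09-fold lower with Thr (log2 fold change -2.03 ± 0.03, adjusted p = 1.4e-23), changed by -0.38 ± 0.03 with Cys (adjusted p = 2.1e-10) and differed by -1.66 ± 0.03 between the starvations. Scd1 (chromosome 19, 44394455 to 44407879) measured 51.9, 52.6 and 50.5 CPM in unstarved, 24.8, 24.8 and 27.1 CPM in Thr-starved and 43.9, 41.3 and 40.6 CPM in Cys-starved cells. It too had 3 separate groups, with changes of -1.01 ± 0.04 with Thr (adjusted p = 2.4e-15) and -0.30 ± 0.04 with Cys (adjusted p = 3.3e-06). Per kb, Scd2 exceeded Scd1 by 4.93 to 5.19 times in unstarved and 4.79 to 4.91 times in Cys-starved libraries, and by 2.41 to 2.60 times in Thr-starved libraries. The 2 genes share a near-identical stretch, so some reads may not be assigned between them.

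Elovl6, which elongates palmitate, measured 68.5, 67.8 and 69.1 CPM in unstarved, 47.6, 48.5 and 49.7 CPM in Thr-starved and 70.9, 67.8 and 68.9 CPM in Cys-starved cells. Thr-starved libraries were the low ones and the others overlapped. It fell by 0.49 ± 0.03 with Thr (adjusted p = 3.8e-12), had a value of 0.01 ± 0.03 with Cys (adjusted p = 0.76) and was lower by 0.51 ± 0.03 in the direct comparison (log2 difference -0.51). Fads1 and Fads2, the delta-5 and delta-6 desaturases of polyunsaturated fatty acids, lie near each other on chromosome 19 and moved apart with Thr. Fads1 rose by 0.12 ± 0.03 with Thr and by 0.13 ± 0.03 with Cys, and the direct difference was -0.0044 ± 0.03 (adjusted p = 0.92). Fads2 changed by -0.45 ± 0.04 with Thr and by -0.12 ± 0.04 with Cys, a call lost without unstarved replicate 2 (-0.11) or Cys-starved replicate 3 (-0.09). The ratio of Fads1 to Fads2 per kb was 0.808 to 0.858 in unstarved, 0.952 to 1.02 in Cys-starved and 1.22 to 1.27 in Thr-starved libraries.

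**Figure D4:**
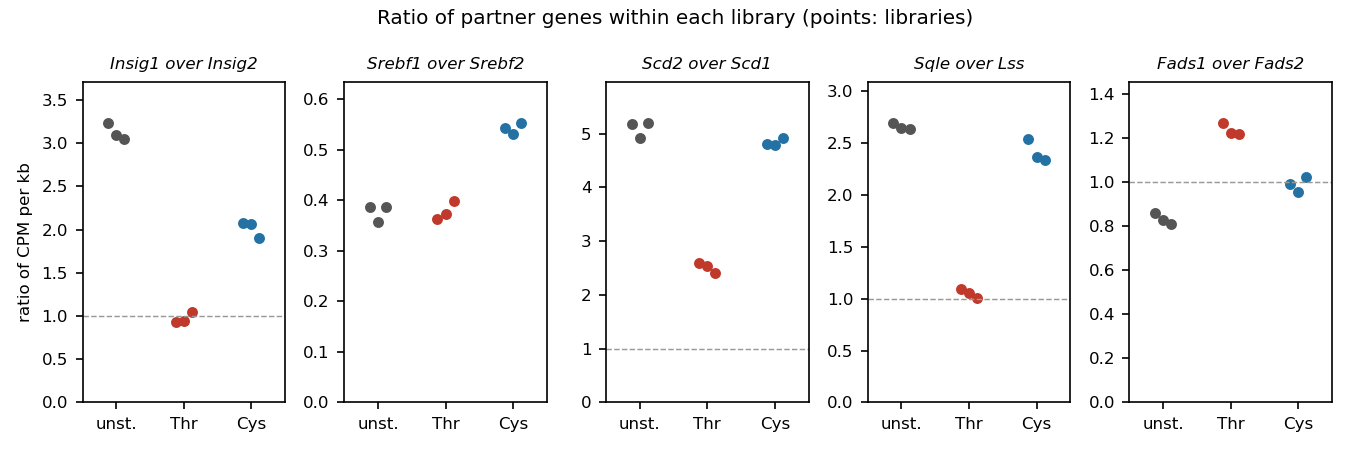
Ratio of CPM per kb within each library (points) for 5 gene pairs, chosen after their values were seen, in unstarved (unst.), Thr-starved and Cys-starved cells. The dashed line marks a ratio of 1. Where the points lie against it depends on the merged exon lengths. Insig1 over Insig2 drops from 3.04 to 3.23 in unstarved to 0.926 to 1.05 in Thr-starved libraries.

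A further 66 genes of the pathway were measured, of 67 listed. In Thr starvation 22 rose, 27 fell and 17 were not called, with a median of -0.01 on the log2 scale, where 31.1% of all tested genes were called higher and 31.9% lower. In Cys starvation 13 rose, 19 fell and 34 were not called, with a median of 0.02, where 17.5% of all tested genes were called higher and 18.8% lower. In the direct comparison 20 were higher in Thr-starved cells and 28 lower, where 30.4% of all tested genes were higher and 31.6% lower. By group, read against the same shares, the 8 genes of SREBP processing and sterol-regulated degradation gave 5 higher and 2 lower with Thr, the 13 other sterol and isoprenoid enzymes 6 and 4, the 8 other SREBP targets and lipogenic supply genes 2 and 5, the 6 LXR genes 2 and 1, the 7 genes of sterol storage and transfer 3 and 2, and the 24 other fatty acid enzymes 4 and 13.

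A change of at least 1 on the log2 scale was reached in either direction by 9 of the 66 with Thr (13.2% of all tested genes) and 1 with Cys (1.47% of all tested genes). Rnf145 encodes a ubiquitin ligase of the endoplasmic reticulum. Rnf145 measured 95.1, 98.2 and 97.4 CPM in unstarved, 27.4, 29.5 and 28.4 CPM in Thr-starved and 72.4, 73.4 and 68.8 CPM in Cys-starved cells, with log2 fold changes of -1.77 ± 0.04 and -0.44 ± 0.03. Its 3 groups were separate, with Thr-starved cells lowest. Soat1 and Soat2 esterify cholesterol for storage. Soat1 fell by 1.11 ± 0.05 with Thr, from 35.8 to 38.6 CPM in unstarved to 16.8 to 18.3 CPM in Thr-starved libraries. Soat2, at a lower level, rose by 1.06 ± 0.13, from 1.61 to 2.38 CPM in unstarved to 4.28 to 4.63 CPM in Thr-starved libraries. Lipa, the lysosomal acid lipase that frees cholesterol from its esters, fell by 1.26 ± 0.08 with Thr, and Abcg1, a cholesterol efflux transporter, fell by 1.26 ± 0.08. Scd3 and Scd4, desaturases related to Scd1 and Scd2, changed by -1.90 ± 0.10 and -2.41 ± 0.20 with Thr and by -0.34 ± 0.09 and -0.43 ± 0.16 with Cys. Both stood at low levels. Scd3 measured 6.30 to 7.18 CPM in unstarved and 1.73 to 1.87 CPM in Thr-starved libraries. For Scd4 the ranges were 2.26 to 2.78 CPM in unstarved and 0.461 to 0.477 CPM in Thr-starved libraries. The lipogenic gene Thrsp rose by 1.69 ± 0.41 with Thr but stayed at or below 0.573 CPM in every library, and the elongase Elovl3 rose by 1.83 ± 0.49 with Cys and stayed at or below 0.433 CPM.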

How the data were processed

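Counts per gene were deposited for 9 libraries, made by the authors from poly(A) mRNA with a directional kit. The submitters' processing notes name STAR 2.7.4a, HTSeq, DESeq2 and build GRCm38, and whether HTSeq counted by strand is not given in the sources used here. The authors also deposited a normalized signal per gene, which equals the counts divided by 1 size factor per library and served only as an alternative scaling.

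Raw counts were tested with edgeR 4.0.16 (R 4.3.3) by quasi-likelihood in 1 fit of all 9 libraries with TMM scaling, on 20143 genes with at least 1 read, with Benjamini-Hochberg adjustment over all of them. Levels are TMM-scaled CPM. The common biological coefficient of variation was 3.53%. On simulated Thr-starved and unstarved counts of 20141 genes, edgeR recovered 45 of 68 changes of 0.25 (log2), 62 of 66 of 0.5 and 66 of 66 of 1, with 9 false calls. The simulation gave all genes the same spread. It changed only well-counted genes, far fewer than were called in the data, so these figures need not carry over. Symbols for 20171 of 20189 genes, positions and exon lengths came from GENCODE M21. Near-identical stretches are matches of at least 95% identity over at least 100 bases. Promoters came from RefSeq (GRCm38.p6), and 31 of the 33 windows of the members read in the direction of GENCODE transcripts, the other 2 (Sc5d and Nsdhl) matching in neither direction.

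The 32 genes, the lists and the tests were chosen with earlier results of these data known. Each library's value is given for members called with a log2 fold change of at least 0.5 in size in any of 3 comparisons, or called in opposite directions by the starvations, and other pathway genes are named from a size of 1 in either starvation against unstarved cells, except 1 that is not reported here. Alternatives were DESeq2 1.42.0, other size factors, filterByExpr, 2 groups only, a replicate block, counts halved, and leaving out each library. Leaving out the 10 most counted genes was added after seeing the data. Halving was tried because 67.8% of the 28226 counts between 1 and 20 were even. Same-numbered libraries did not deviate together (correlations between -0.244 and 0.106 over 11410 genes), so replicate numbers were not treated as pairs.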

Additional observations from a re-analysis of the deposited data

Results flagged for a closer look

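Srebf1 was called lower in Thr starvation (log2 fold change -0.11 ± 0.03) and higher in Cys starvation (0.28 ± 0.03) against the same unstarved libraries, and the difference between the starvations, tested directly with edgeR, was -0.39 ± 0.03 (adjusted p = 6.7e-10). All 3 Cys-starved libraries lay above, and all 3 Thr-starved libraries below, the unstarved ones. Without Thr-starved replicate 1 the Thr value was -0.08 and no longer called (adjusted p = 0.075). The exon overlap with Rai1 spans 109 bases, and its part in the difference was not tested. Groups of 3 are too small for the check on single libraries that lie far from their group.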

How the results depend on the processing

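The counts of members and of other pathway genes called higher or lower stayed within 1.5 times of their values under all alternatives, DESeq2 included. The replicate block kept the direction and call of all 96 member values (Thr-starved vs unstarved: 26 lower, 3 higher with the block). The labels do not say whether the replicate numbers pair the libraries. The median of the members in Cys starvation, -0.09, was -0.13 with the deposited size factors and ranged from -0.11 to -0.062 when 1 library was left out, and the median of Thr-starved against Cys-starved, -0.39, was -0.35 with the deposited size factors. Signs turned only for values that were near 0 and not called. In Cys starvation Acaca was -0.0019 with RLE, -0.039 with deposited size factors, -0.0020 with DESeq2, -0.00019 with filterByExpr and -0.021 to 0.039 with 1 library left out. With the deposited size factors Mvd was -0.018, Lss -0.0013, Tm7sf2 -0.010 and Elovl6 -0.027. Fdft1 was 0.0019 with 2 groups only and 0.00064 with counts halved. Leaving out 1 library gave ranges of -0.027 to 0.014 for Fdft1, -0.032 to 0.013 for Nsdhl, -0.045 to 0.11 for Tm7sf2 and -0.0032 to 0.030 for Elovl6. In Thr-starved against Cys-starved cells Fads1 was 0.0066 with RLE, 0.040 with deposited size factors, 0.0064 with DESeq2, 0.0040 with filterByExpr, 0.0028 without the 10 most counted genes and -0.015 to 0.0100 with 1 library left out. Ebp was -0.0036 with counts halved and -0.054 to 0.052 with 1 library left out. The cause of these moves was not tested. Of the member calls, Fasn in Cys starvation was gained with the deposited size factors (-0.12) and Sc5d with counts halved (0.12), and the direct calls of Sc5d (-0.08) and Stard4 (-0.05) were lost with the deposited size factors. Among the members, the SE in Thr starvation was 0.10 for Tm7sf2, the lowest in level, and 0.03 for Fasn.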
